A study of Homo sapiens with 4 samples.

Results

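The p38 and JNK kinase cascade of LV-M100 breast cancer cells was examined at the level of single transcripts after depletion of the spliceosome gene SNRNP40. The 10 genes comprised MAPK14, its substrate kinases MAPKAPK2, MAPKAPK3 and MAPKAPK5, the JNK genes MAPK8 and MAPK9, and the activating kinases MAP2K3, MAP2K6, MAP2K4 and MAP2K7. They are 10 of 23217 gene symbols in the deposited table and hold 25 of its 44578 transcripts. The set was chosen from the measured values, because a transcript of MAPK14 and a transcript of MAPKAPK3 had among the largest differences between the conditions while the sums of both genes were nearly the same. All differences below come from that same contrast and are a description, with no test.

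LV-M100 is a clonal subpopulation of MDA-MB-231, so the cells represent 1 clone. All 4 libraries were made from total RNA 48 h after Lipofectamine transfection, with ribosomal RNA removed. The controls were the NC1 siRNA (replicate 1) and a BLOCK-iT Fluorescent Oligo (replicate 2). SNRNP40 was depleted with a different siRNA in each replicate, named siSNRNP40 #1 and siSNRNP40 #2. The table holds 1 FPKM per transcript and condition (fragments per kilobase of transcript, scaled to the number of mapped fragments), in which the 2 libraries of a condition are pooled, so no value has a replicate error and the depth is unknown.

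p38 and JNK are the stress-activated branches of the MAP kinase family. MAP kinase kinases phosphorylate them on a threonine and a tyrosine of the activation loop: MAP2K3 and MAP2K6 act on p38, MAP2K7 on JNK, and MAP2K4 on both. Active p38 in turn phosphorylates the MAPKAP kinases, which act on small heat shock protein and on proteins that bind AU-rich mRNAs, and active JNK phosphorylates transcription factors such as JUN and ATF2. Several of these kinase genes are spliced in alternative ways, including exchanges of an exon within the kinase domain.

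In the GENCODE annotation of GRCh37, 3 of the 10 genes contain a pair of neighbouring coding exons of equal length that no protein-coding transcript uses together. An exon was counted as used where a coding segment had exactly its bounds. By this count, some protein-coding transcripts of these genes use neither exon. The pairs of MAPK14, MAPK8 and MAPK9 are shown because they are the annotated sites where these genes exchange a coding exon for another of equal length. They are printed along the transcribed strand, and capitals mark the positions at which the exons of a pair differ.
MAPK14 first exon, plus strand of chr6:36063764-36063843: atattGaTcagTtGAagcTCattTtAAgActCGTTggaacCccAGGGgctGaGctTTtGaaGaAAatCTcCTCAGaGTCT
MAPK14 second exon, plus strand of chr6:36067965-36068044: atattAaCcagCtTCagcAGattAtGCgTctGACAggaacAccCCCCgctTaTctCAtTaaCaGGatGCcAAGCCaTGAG
MAPK8 first exon, plus strand of chr10:49632131-49632202: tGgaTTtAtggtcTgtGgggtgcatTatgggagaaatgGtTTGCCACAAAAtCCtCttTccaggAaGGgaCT
MAPK8 second exon, plus strand of chr10:49632557-49632628: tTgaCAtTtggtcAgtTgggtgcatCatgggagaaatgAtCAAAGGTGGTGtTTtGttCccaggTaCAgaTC
MAPK9 first exon, minus strand of chr5:179674855-179674926: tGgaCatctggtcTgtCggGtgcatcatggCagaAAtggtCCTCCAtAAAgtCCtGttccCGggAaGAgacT
MAPK9 second exon, minus strand of chr5:179674439-179674510: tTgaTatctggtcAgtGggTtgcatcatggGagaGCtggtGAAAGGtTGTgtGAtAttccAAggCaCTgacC

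The MAPK14 exons have 80 bases each and differ at 39 of them (51.2% identity). The first is used by 3 and the second by 1 of the 5 protein-coding transcripts annotated. The exons of MAPK8 have 72 bases, with 28 differences (61.1% identity), and those of MAPK9 also have 72 bases, with 26 differences (63.9% identity). Of the 9 protein-coding transcripts annotated for each JNK gene, 2 use the first and 3 the second MAPK8 exon, while each of the MAPK9 exons is used by 2. The deposited table identifies a transcript only by its assembly number and gives the span of the whole locus, so which exon a listed transcript carries was not determined.

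SNRNP40 itself, which encodes a component of the U5 snRNP, had an FPKM of 40.4 with control siRNAs and of 6.12 after depletion (a decrease of 84.9%). All 6 markers of the mesenchymal state of MDA-MB-231 were expressed. In control and depleted cells the summed FPKM was 1058 and 1018 for LGALS1, 750.1 and 733.0 for VIM, 124.7 and 114.8 for AXL, 115.9 and 141.3 for CD44 and 18.3 and 22.7 for EGFR. CAV1, at 285.4 and 197.7 (log2 fold change -0.53), was the only marker of this list past 0.5. Among luminal markers ESR1, PGR and CDH1 stayed below 0.1 in both conditions, while KRT19 was at 196.0 and 173.2, EPCAM at 10.6 and 10.0 and GATA3 at 1.32 and 1.18. PTPRC of blood cells and CDH5 of endothelium were listed at 0, and of the other markers of blood, endothelium and red cells only PECAM1 exceeded 0.1 (0.922 and 1.202).

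At the gene level, the FPKM of all transcripts was summed. None of the 9 members with a mean sum of at least 1 passed an absolute log2 fold change of 1, and none passed 0.5. The study used a limit of 1 for transcripts, not for gene sums. Over all 12334 genes with a mean sum of at least 1, 1.47% passed 1 and 10.3% passed 0.5. The 9 log2 fold changes (SNRNP40 siRNA over control siRNA) lay between -0.41 and 0.46, with 4 above 0 and 5 below, and their median was -0.067 against 0.0034 for all genes. The median absolute value was 0.147 for the members and 0.170 for all genes. MAPK14 and MAPKAPK3 were chosen for sums that were nearly the same, so nothing is read from the members' counts and medians.

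**Figure D1:**
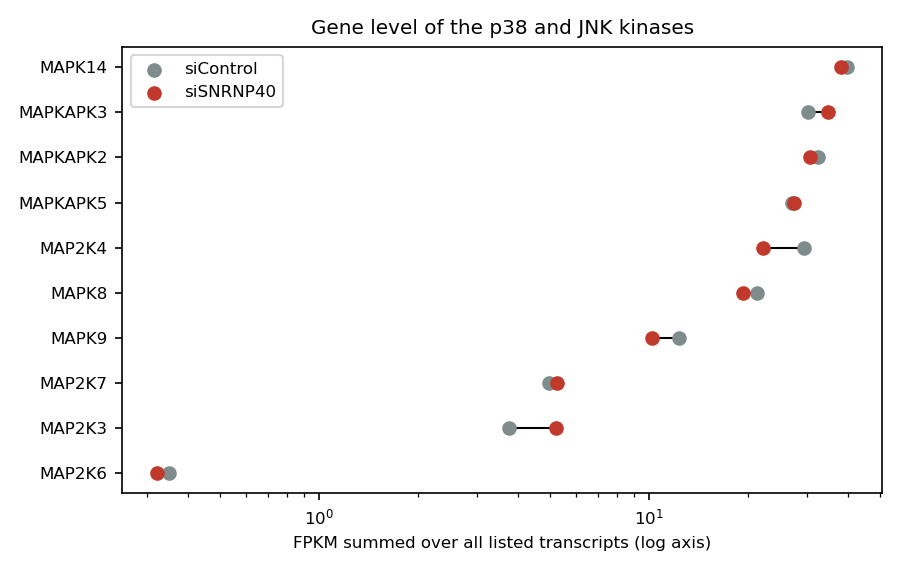
Summed FPKM (x axis, log scale) of the 10 genes (y axis, ordered by mean) with control siRNAs (grey) and after SNRNP40 depletion (red); each point is 1 pooled value of 2 libraries, and the line joins the conditions. The points nearly coincide for MAPK14 and MAPKAPK5 and are farthest apart for MAP2K3 and MAP2K4.

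MAPK14, which encodes p38 alpha, had the highest sum of the 10 genes, with an FPKM of 39.9 in control cells and 38.1 in depleted cells (log2 fold change -0.067). Its locus in the table is chr6:35995454-36079013 of hg19, and 4 transcripts are listed there, of which TCONS_00033214 was at 0 in both conditions. TCONS_00033211 had an FPKM of 1.07 in control cells and 9.31 in depleted cells, which is 8.70-fold higher (log2 fold change 3.12). TCONS_00033213 went the other way, from 19.1 to 10.6 (log2 fold change -0.85). TCONS_00033212 was at 19.8 and 18.2 (log2 fold change -0.12). The gain of TCONS_00033211 was 8.24 FPKM, and the FPKM of TCONS_00033213 dropped by 8.52. In shares of the gene, TCONS_00033211 made up 2.68% of the control and 24.4% of the depleted sum, and TCONS_00033213 made up 47.8% and 27.7%. TCONS_00033212 held the largest share in both conditions, 49.5% and 47.9%. When all 15376 transcripts whose FPKM reached 1 in each condition were ordered, TCONS_00033211 had the 4th largest log2 fold change, which is the value that placed MAPK14 in the set.

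MAPKAPK3, a kinase that p38 activates, is listed with 3 transcripts at chr3:50649293-50686728 and a sum of 30.3 in control and 34.8 in depleted cells (log2 fold change 0.20). TCONS_00027405 had an FPKM of 18.1 in control cells and 2.12 in depleted cells, 8.58-fold lower (log2 fold change -3.10). TCONS_00027406 had 12.1 and 32.6, 2.70-fold higher (log2 fold change 1.43). TCONS_00027404 was at 0.106 and 0.0966. The leading transcript therefore differed between the conditions. TCONS_00027405 held 59.8% of the control sum and 6.07% of the depleted sum, whereas TCONS_00027406 held 39.9% and 93.6%. The second gained 20.5 FPKM, more than the first lost. TCONS_00027405 had the 3rd most negative log2 fold change of the same 15376 transcripts, the value that placed MAPKAPK3 in the set. GENCODE lists 6 protein-coding transcripts of MAPKAPK3 with 4 distinct coding sequences, so some annotated transcripts of this gene differ outside the coding sequence only.

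MAPKAPK5, also a substrate of p38, had the most similar sums, 27.2 in control and 27.5 in depleted cells (log2 fold change 0.019). TCONS_00009532 had an FPKM of 16.6 and 23.6 (log2 fold change 0.50) and its share was 61.3% and 85.8%. TCONS_00009533 had 10.5 and 3.91 (log2 fold change -1.43) and its share was 38.7% and 14.2%. A gain of 6.96 in one transcript faced a loss of 6.60 in the other. The assembled locus, chr12:112277573-112331228, is shared in the table with C12orf47 (now MAPKAPK5-AS1, an antisense RNA), which had an FPKM of 6.39 and 7.43. Whether the counting used strand is not given in the sources used here, and how far reads of the antisense RNA enter the MAPKAPK5 values was not tested.

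MAPKAPK2, the closest relative of MAPKAPK3, showed no such exchange. Its locus is chr1:206858365-206907630, its sum was 32.4 in control and 30.8 in depleted cells (log2 fold change -0.076), and its larger transcript, TCONS_00001903, had an FPKM of 26.7 and 23.9. The share of that transcript was 82.3% and 77.8%. TCONS_00001902 had 5.75 and 6.82. The ratio of the MAPKAPK3 sum to the MAPKAPK2 sum was 0.936 in control and 1.13 in depleted cells, so the order of these kinases in FPKM was opposite in the conditions, on a difference for which no error can be given.

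**Figure D2:**
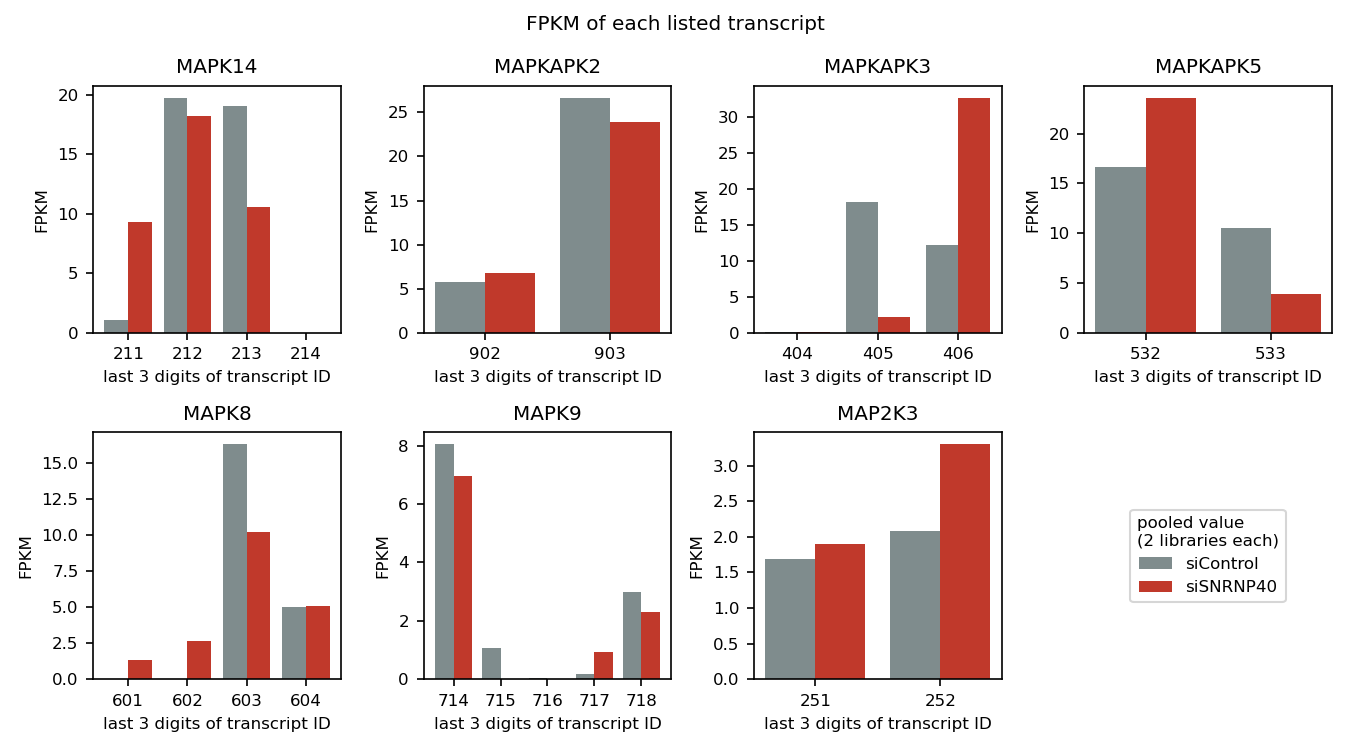
FPKM (y axis, a scale of its own in each panel) of every listed transcript of the 7 members with more than 1 (x axis, last digits of the transcript number), with control siRNAs (grey) and after SNRNP40 depletion (red); each bar is 1 pooled value without an error. Grey and red bars trade height in MAPK14, MAPKAPK3 and MAPKAPK5, where a gain in one transcript faces a loss in another.

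MAPK8, which encodes JNK1, had a sum of 21.3 in control and 19.2 in depleted cells (log2 fold change -0.15) at chr10:49609687-49643183. Its leading transcript, TCONS_00004603, had an FPKM of 16.3 and 10.2 (log2 fold change -0.67), and its share was 76.5% and 53.0%. TCONS_00004602 was at 0.000371 in control cells and 2.66 in depleted cells. TCONS_00004601 was listed at 0 in control cells and at 1.29 in depleted cells. In the depleted cells they held 13.8% and 6.72% of the sum, so both appeared, in the estimates, where the leading transcript held less. No fold is given for them, since the control value is at or near 0. TCONS_00004604 had 5.01 and 5.09. The locus in the table starts inside the annotated gene, which in GENCODE runs from 49514682 to 49647403, so transcripts that begin farther upstream are not among those listed.

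MAPK9, which encodes JNK2, had a sum of 12.3 in control and 10.2 in depleted cells (log2 fold change -0.27) at chr5:179660595-179719071. Its main transcripts kept their order. TCONS_00032714 had an FPKM of 8.06 and 6.97, with shares of 65.5% and 68.4%, and TCONS_00032718 had 2.98 and 2.29, with shares of 24.2% and 22.5%. The other 3 transcripts were low. TCONS_00032715 was listed at 1.06 in control cells and at 0 in depleted cells, TCONS_00032717 had 0.190 and 0.926, and TCONS_00032716 was at 0.0229 and 0. The MAPK8 sum was 1.73 times the MAPK9 sum in control and 1.89 times in depleted cells.

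Of the kinases that activate p38 and JNK, MAP2K4 and MAP2K3 had the largest differences of the gene sum among the members, in opposite directions. MAP2K4, listed with a single transcript at chr17:11924135-12047051, had an FPKM of 29.5 in control and 22.2 in depleted cells, 24.7% less (log2 fold change -0.41). MAP2K3, at chr17:21187968-21218551, had a sum of 3.78 and 5.21, 37.9% more (log2 fold change 0.46). Both transcripts of MAP2K3 were higher in depleted cells, TCONS_00016251 at 1.69 and 1.91 and TCONS_00016252 at 2.08 and 3.30, so this difference was not an exchange between them. MAP2K7 (chr19:7968765-7979363), with a single transcript, had 4.98 and 5.26 (log2 fold change 0.079). MAP2K6 (chr17:67410838-67538470) was low, at 0.350 and 0.322, and is the only member that did not reach a mean of 1. The MAP2K4 sum was 5.91 times that of MAP2K7 in control and 4.21 times in depleted cells.

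Taking the members in the order of their mean sums, MAPK14 was followed by MAPKAPK3, MAPKAPK2, MAPKAPK5, MAP2K4, MAPK8, MAPK9, MAP2K7, MAP2K3 and MAP2K6. Neighbours in this order cannot be separated by their spread, because the table holds no value per library.

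Across the 25 member transcripts, 18 reached a mean FPKM of 1 and 7 did not. Of these 7, 1 was at 0 in both conditions and 3 were listed at 0 in 1 condition only. Of the 18, 5 passed an absolute log2 fold change of 1. These were TCONS_00033211 of MAPK14, TCONS_00027406 of MAPKAPK3 and TCONS_00004602 of MAPK8, which were higher, and TCONS_00027405 of MAPKAPK3 and TCONS_00009533 of MAPKAPK5, which were lower. Over all 16691 transcripts compared in the same way, 10.5% passed, 5.5% as higher and 5.04% as lower, and among transcripts of genes with more than 1 listed transcript the share was 16.9%. Because the set was chosen on this contrast, nothing is read from the members' count. A value of 0 in 1 condition with an FPKM of at least 1 in the other was found for 2 of 20 member transcripts that reached an FPKM of 1 in either condition and for 2.56% of all such transcripts.

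To describe the exchange within a gene by 1 value, the absolute differences between the shares of its transcripts were summed and divided by 2, and the result was called the share moved. It is 0% where all transcripts keep their shares and 100% where no transcript is used in both conditions. A factor that scales all transcripts of a condition does not affect it. The share moved was 53.8% in MAPKAPK3, 24.5% in MAPKAPK5, 23.4% in MAPK8, 21.8% in MAPK14, 10.5% in MAPK9, 8.20% in MAP2K3 and 4.42% in MAPKAPK2. The first 4 exceeded 20%, with MAPK14 just inside that limit and MAPK9 the next below it. The median of the 7 members was 21.8%, against 7.66% over the 5282 genes with more than 1 listed transcript and a mean sum of at least 1. The members' median is the value of MAPK14, which was chosen on this contrast, so nothing is read from it.

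**Figure D3:**
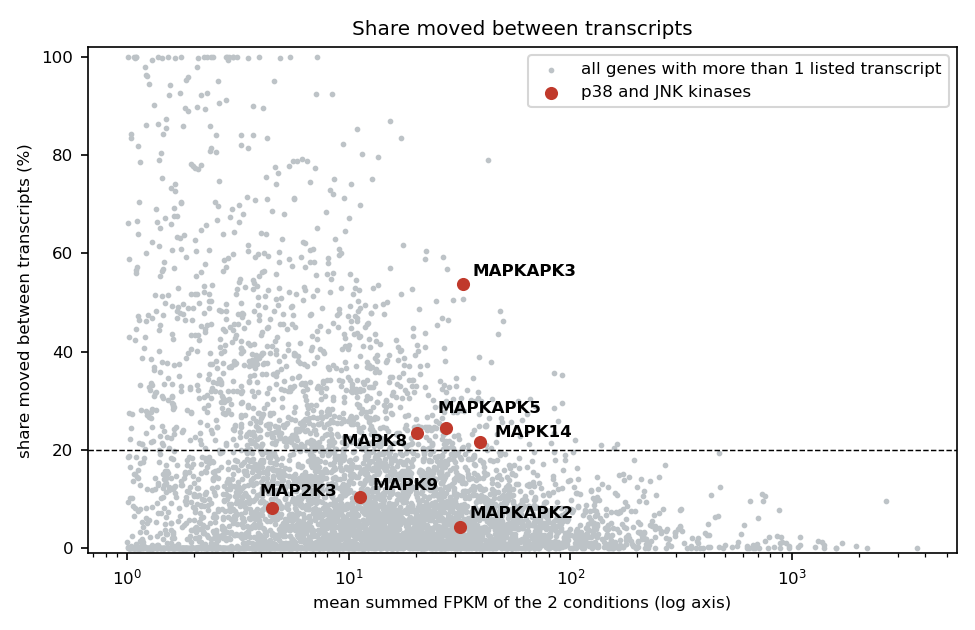
Share moved between transcripts (y axis, percent) against the mean summed FPKM of both conditions (x axis, log scale) for all genes with more than 1 listed transcript (grey) and for the 7 members with more than 1 (red); the dashed line marks 20%. Grey points spread to higher shares at low FPKM, and MAPKAPK3, at 53.8%, lies in the upper part of the points at its level.

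At least 20% was moved in 22.5% of all these genes, at least 10% in 42.4% (5 of the 7 members) and at least 30% in 13.6% (MAPKAPK3 alone among the members). For genes whose symbol has a single locus in the table, 22.9% reached 20%. The value depends on how many transcripts are listed. It reached 20% in 13.9% of genes with 2 transcripts, as in MAPKAPK5 but not MAPKAPK2 or MAP2K3, and in 21.1% of those with 3, as in MAPKAPK3. The corresponding figures were 29.5% with 4 transcripts, as in MAPK14 and MAPK8, and 32.5% with 5, where MAPK9 was below. It also depends on the level, with a median of 13.4% for genes at a mean sum from 1 to 5, 9.02% from 5 to 20, 5.94% from 20 to 50 and 3.43% from 50 upwards. In the band from 20 to 50, 11.5% of 1115 genes reached 20%. Of the members, 5 have several transcripts and a mean sum from 20 to 50, and 4 of these reached 20%. MAPK14 and MAPKAPK3 were placed in the set on this contrast, so nothing is read from the members' counts here.

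A share at least as large as that of MAPKAPK3 was moved in 4.24% of all genes with several transcripts and in 3.37% of those with 3. For MAPKAPK5 these figures were 17.7% of all and 11.0% among genes with 2 transcripts. For MAPK8 and MAPK14 they were 18.7% and 20.3% of all genes, and 23.1% and 26.2% among genes with 4 transcripts. These positions describe genes chosen on this contrast, and nothing is read from them. The leading transcript differed between the conditions in 1 of 7 members, MAPKAPK3, and in 14.8% of all genes. With a lead of at least 10 percentage points in both conditions it differed in the same member and in 7.23% of all genes. A transcript past an absolute log2 fold change of 1 within a gene whose sum differed by less than 0.5 was found in 4 of 7 members (MAPK14, MAPKAPK3, MAPKAPK5 and MAPK8) and in 20.7% of all genes. MAPK14 and MAPKAPK3 were chosen for this trait, so nothing is read from that count.

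The difference between gains and losses over transcripts is the difference of the gene sum, which the choice of these 4 genes had limited. Gains and losses were 8.24 and 10.1 FPKM in MAPK14, 20.5 and 16.03 in MAPKAPK3, 6.96 and 6.60 in MAPKAPK5, and 4.02 and 6.08 in MAPK8. The FPKM of overlapping transcripts is estimated by dividing the fragments they share, so a gain in one transcript of a gene can stand beside a loss in another through that division alone. The part this had in the exchanges was not tested.

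The genes most like MAPK14 in the share moved, among the 473 other genes with 4 listed transcripts and a mean sum of at least 5, were PCGF5 (21.8%), YIPF1 (21.7%) and PELI3 (21.8%). Those most like MAPKAPK3, among 724 genes with 3 transcripts, were TLE3 (54.6%), HERPUD1 (52.5%) and MTX3 (55.6%). This likeness rests on 2 pooled conditions only.

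The remaining genes of the p38 and JNK pathway were taken from a list of 61. None of the 53 with a mean sum of at least 1 passed an absolute log2 fold change of 1, against 1.47% of all genes, and 5 passed 0.5, against 10.3%. Their median was -0.012, with 26 above 0 and 27 below. The other p38 and JNK genes were weaker than MAPK14. MAPK13 (p38 delta) had an FPKM of 14.7 in control and 11.2 in depleted cells (log2 fold change -0.38) and MAPK12 (p38 gamma) 6.744 and 8.005 (0.25), while MAPK11 (p38 beta) was at 0.287 and 0.380 and MAPK10 (JNK3) at 0.0187 and 0.0410.

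**Figure D4:**
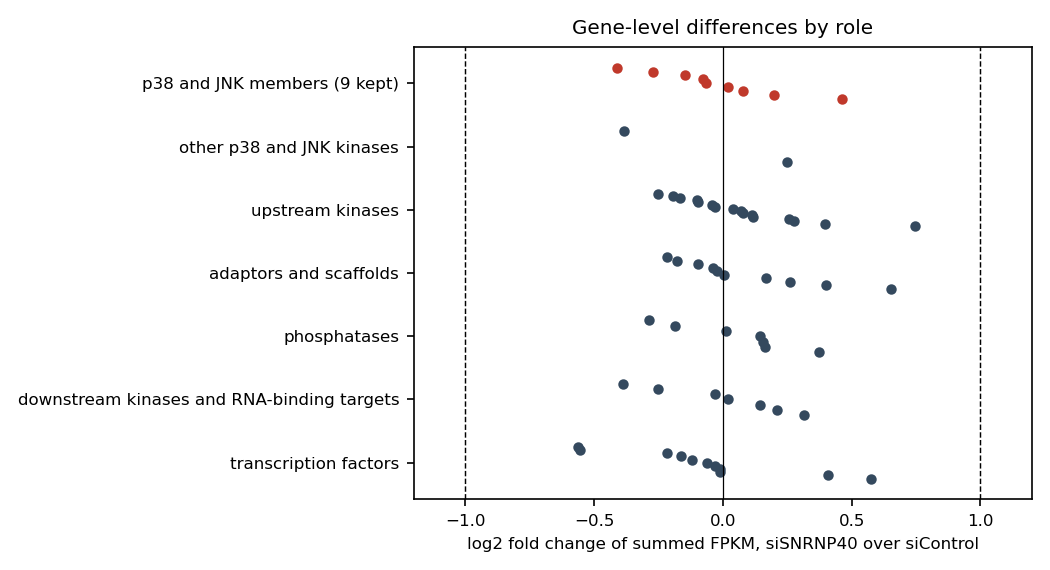
Log2 fold change of the summed FPKM (x axis, SNRNP40 siRNA over control siRNA) of the 9 members (red) and of the 53 other pathway genes (dark) with a mean sum of at least 1, by role (y axis); each point is a gene, its height within a row only separates points, and dashed lines mark -1 and 1. All points lie between the dashed lines, with MAP3K5 farthest to the right at 0.75.

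Among 16 upstream kinases, 9 were above 0 and 7 below. MAP3K5 (ASK1), activated by oxidative stress, had the largest value, with 3.15 in control and 5.28 in depleted cells (log2 fold change 0.75). The most expressed of this group differed little, MAP4K4 with 68.9 and 74.8, TAOK3 with 48.3 and 51.1 and TAOK1 with 33.2 and 31.1. Among 10 adaptors and scaffolds with a mean of at least 1, GADD45A, a stress-induced activator of MAP3K4, had 20.9 and 32.8 (0.65). The JNK scaffold SPAG9 had 47.3 and 53.2 (0.17), and GADD45B had 26.5 and 26.1.

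The phosphatases that inactivate p38 and JNK showed no difference past 0.5 in any of 7 genes. DUSP10, which acts on both, had 27.9 and 36.2 (log2 fold change 0.37), DUSP4 had 36.98 and 30.30 (-0.29) and PPM1B had 34.1 and 34.4 (0.013). Of 7 downstream kinases and RNA-binding targets none passed 0.5 either. The p38-activated kinase RPS6KA4 had 25.4 and 29.3 (0.21), MKNK1 had 15.5 and 19.3 (0.32) and ZFP36L1 had 21.0 and 20.6 (-0.030).

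Transcription factors downstream of the kinases included both values below -0.5 of the list. ATF2 had a sum of 29.2 in control and 19.8 in depleted cells (log2 fold change -0.56) and ATF1 22.4 and 15.2 (-0.55). ATF3, an early stress-response gene, was low, with 1.24 and 1.85 (0.58). JUN, the main substrate of JNK, had an FPKM of 60.5 and 55.6 (-0.12). Of the 11 transcription factors with a mean of at least 1, 2 were above 0 and 9 below, several of them close to 0. Their median was -0.060, against 0.0034 for all genes.

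At least 20% of the sum was moved between transcripts in 6 of the 29 pathway genes with several transcripts, or 2 of 9 upstream kinases, 1 of 5 adaptors and scaffolds, 0 of 4 phosphatases, 0 of 5 downstream kinases and RNA-binding targets and 3 of 6 transcription factors. The figure for all genes is 22.5%. The median share moved was 8.17% in these 29 genes, close to the 7.66% of all genes.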

How the data were processed

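RNA of 4 libraries, 2 per condition, was sequenced by the authors on an Illumina HiSeq from ScriptSeq v2 libraries. Per the paper's methods and the submitters' processing notes, reads were trimmed with cutadapt 1.2.1 and mapped with TopHat2 2.0.8 to hg19, and Cufflinks with cuffmerge and Cuffdiff 2.0.2 gave the values. The deposited FPKM values are 1 estimate per transcript and condition, with both libraries pooled. The deposited fold changes, test statistics, p-values and q-values hold the authors' own comparison and were not used.

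Read totals are not given, and the summed FPKM was 516056 in control and 517152 in depleted cells. Fold changes (SNRNP40 siRNA over control siRNA) were recomputed from FPKM without a pseudocount, for transcripts or gene sums with a mean of at least 1. Gene sums add all transcripts of a symbol. No test was run, since the pooled columns hold no value per library. The members and lists were chosen with earlier results of these data known. Named genes are the members, SNRNP40, the markers, pathway genes past an absolute log2 fold change of 1 or among the 3 highest of their role, and the 3 nearest in share moved. Outside this rule, MAPK10, MAP3K5, MAP3K7, MAP3K12, ATF3, DDIT3 and the overlapping C12orf47 were named after their values were seen. Exons came from GENCODE release 44 on GRCh37, whose coordinates equal those of hg19. The calculation was tested on simulated data without noise, which checks the arithmetic only. Python 3.11.15, numpy 2.4.6, pandas 2.3.3 and pysam 0.24.0 were used.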

Additional observations from a re-analysis of the deposited data

How the results depend on the processing

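No paired analysis was possible because both libraries of a condition share 1 pooled column, and leaving out each library was therefore not run either. No counts are given, so the limits set by depth are not known. A count was taken as moved when it differed by more than 1.5 times, a log2 fold change by at least 0.1 and a share moved by at least 5 percentage points. The number of member transcripts past the limit, 5, was between 4 and 6 under every alternative tried, but the share of all transcripts past it, 10.5%, was 24.2% without a filter (6 member transcripts), 3.46% at a mean FPKM of at least 5 (4 member transcripts) and 7.21% with a pseudocount of 1 (5 member transcripts). The number of members past the limit at the gene level, 0, became 1 with the most expressed transcript in place of the sum. That member was MAPKAPK3, chosen on this contrast, through TCONS_00027406 (log2 fold change 1.43). The share of all genes at that setting was not computed. The number of members was 0 with a pseudocount of 1, with centring, with upper-quartile scaling and at a limit of 0.5. The number of members with at least 20% moved, 4, was 1 at a limit of 30%, 5 at a limit of 10% and 3 when transcripts with a mean share under 5% were left out (21.5% of all genes), where MAPK8 came to 19.6%. The 1 member with another leading transcript was the same with a required lead of 10 points. The number of other pathway genes past the limit, 0, became 4 without an expression filter and 5 at a limit of 0.5 (10.3% of all genes). These counts follow from the wider choice of genes and the lower limit. The 4 genes all had a mean sum below 1, and the share of all genes without a filter was not computed. All 44 values of single members under these alternatives stayed within the limits given, and none changed sign.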

Other observations

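Among the other pathway genes, those with at least 20% of the sum moved between transcripts were MAP3K7, MAP3K12, GADD45A, ATF2, ATF3 and DDIT3, and their transcripts that reached an FPKM of 1 in a condition are described here without a test. These genes were chosen after their values were seen. In MAP3K7 (TAK1), which activates MAP kinase kinases of both branches, 29.95% was moved. TCONS_00034543 had an FPKM of 8.56 in control and 3.17 in depleted cells, and TCONS_00034542 had 7.42 and 10.2, so that the leading transcript differed. In GADD45A the transcripts higher in depleted cells were TCONS_00000850 (1.83 and 8.11) and TCONS_00000851 (13.1 and 23.5), while TCONS_00000852 was lower in depleted cells (5.91 and 1.16).

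ATF2 has 21 listed transcripts. TCONS_00023949 led in both conditions, with 16.2 in control and 8.77 in depleted cells, TCONS_00023961 had 6.39 and 1.54, TCONS_00023951 had 3.96 and 2.37, and TCONS_00023959 had 1.43 and 6.03. In DDIT3 (CHOP), a transcription factor of the integrated stress response, TCONS_00010344 had 4.69 and 8.97, whereas TCONS_00010343 was listed at 2.46 in control cells and at 0 in depleted cells and TCONS_00010342 had 2.32 and 1.02. The DDIT3 sum was 10.4 and 10.0. In ATF3, where 94.2% was moved, a single transcript reached an FPKM of 1, TCONS_00001979, with 0.0722 in control and 1.52 in depleted cells. In MAP3K12 the 1 transcript above this level, TCONS_00010214, had 2.32 and 1.64.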
